A study of Mus musculus with 4 samples.

Results

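The AP-1 family was examined in sorted mouse hematopoietic stem cells (HSCs) with and without Gfi1b, a transcriptional repressor of HSCs and megakaryocytes (MKs). The members are the 10 genes that encode the subunits Fos, Fosb, Fosl1, Fosl2, Jun, Junb, Jund, Atf3, Batf and Batf3. They were picked by symbol, with their levels and KO/WT ratios in these libraries already known, and each symbol matched 1 Ensembl gene among the 37140 listed in all 4 libraries. Poly(A) RNA was sequenced from HSCs (Lin- cKit+ Sca1+ CD48- CD150+) and from HSCs gated as CD41low CD9low, each as a Gfi1b WT and a Gfi1b KO library, which gives 4 libraries and 1 per genotype and population. The methods give that first gate without CD41 or CD9, whereas the results text of the paper calls these cells CD41+/CD9+ HSCs. Whether they include CD41low CD9low cells is thus not settled. The paper used the CD41low CD9low gate to keep out possible MK precursors. All mice were C57Bl6. The KO mice carry floxed Gfi1b alleles and Rosa-Cre and received tamoxifen. The control mice are, by the methods, heterozygous for the floxed allele, with Rosa-Cre and tamoxifen as well, whereas the deposited design separates mice with and without Cre. The sample titles write Gfi1 where the genotype field writes Gfi1b. Cre expressed from the Rosa26 locus is not restricted to HSCs, so the deletion need not be limited to them. Marrow of several mice was pooled before sorting, and no difference below has a replicate check. WT and KO are used as the labels give them.

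AP-1 is a dimer of basic leucine zipper (bZIP) proteins. Jun proteins pair with each other or with Fos proteins, and Fos proteins bind DNA only with a partner such as Jun. Fos, Fosb, Jun, Junb and Atf3 are immediate-early genes, whose short-lived transcripts accumulate soon after growth factor, cytokine or stress signals reach the MAP kinases. Jund is usually transcribed more steadily. Fosl1 and Fosl2 lack the strong activation domain of Fos, and Atf3, Batf and Batf3 mostly restrain AP-1 or direct it to other partners.

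Promoter sequences are shown for 4 of the members with high levels in WT HSCs, to lay out the elements near their starts. Jund is not shown, though it had 16126 counts in WT HSCs against 14992 for Junb. Its promoter entry held none of the motifs marked below and ends at 70697738, before the gene start at 70698949. RefSeq (GRCm38.p6) held a promoter for 9 of the 10 members, all but Fosl1. Each line gives the 250 bases before the start, 5′ to 3′ on the strand of the gene, for Fos at chr12:85473640-85473889 (plus strand), Fosb at chr7:19310046-19310295 (minus strand), Jun at chr4:95052223-95052472 (minus strand) and Junb at chr8:84978749-84978998 (minus strand). Capitals mark TGACG (the half-site of the CRE, the cyclic AMP response element), TGACNTCA (full CRE and the related Jun element), the TATA box TATAAA and the CCAAT box. A TGACNTCA with G as its open base also contains a TGACG.
Fos: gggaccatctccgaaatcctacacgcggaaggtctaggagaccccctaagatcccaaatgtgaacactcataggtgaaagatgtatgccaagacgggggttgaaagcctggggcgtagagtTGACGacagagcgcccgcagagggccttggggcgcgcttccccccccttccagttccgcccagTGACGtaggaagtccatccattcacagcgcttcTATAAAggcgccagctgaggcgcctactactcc
Fosb: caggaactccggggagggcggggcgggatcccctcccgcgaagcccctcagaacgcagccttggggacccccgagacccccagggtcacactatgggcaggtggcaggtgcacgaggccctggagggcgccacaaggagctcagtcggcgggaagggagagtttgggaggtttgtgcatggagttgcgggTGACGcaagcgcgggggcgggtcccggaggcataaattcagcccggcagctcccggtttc
Jun: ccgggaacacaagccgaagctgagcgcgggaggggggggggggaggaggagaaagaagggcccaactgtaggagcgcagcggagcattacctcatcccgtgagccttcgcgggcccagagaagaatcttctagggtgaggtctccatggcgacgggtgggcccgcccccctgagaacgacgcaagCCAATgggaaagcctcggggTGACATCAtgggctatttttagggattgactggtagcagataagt
Junb: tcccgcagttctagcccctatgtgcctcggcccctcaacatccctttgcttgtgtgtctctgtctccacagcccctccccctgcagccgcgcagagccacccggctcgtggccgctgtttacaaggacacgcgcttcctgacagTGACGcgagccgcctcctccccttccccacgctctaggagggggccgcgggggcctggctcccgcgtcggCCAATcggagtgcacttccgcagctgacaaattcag

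TGACG on either strand was found in 5 of the 9 member promoters (Fos, Fosb, Junb, Atf3 and Batf), against 17.8% of all 32851 promoters of this length. In Fos it lies 66 to 62 bases before the start, above a TATAAA at 33 to 28, and a further copy lies at 129 to 125. Fosb and Junb hold it at 60 to 56 and at 106 to 102 bases before the start. Jun was the 1 member with TGACNTCA, as TGACATCA at 45 to 38, and 7.49% of all promoters hold this motif. TATAAA was found in Fos alone among the members and in 12.4% of all promoters, and CCAAT in Jun and Junb and in 33.8%. Neither TGANTCA, the classical AP-1 site (6.75% of all promoters), nor the CArG box bound by Srf (1.47%) was found in a member within this window. These are letter matches in a short window, and binding was not measured.

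The total count on genes ran from 12732079 to 50781007 per library, so that 3 counts, taken as the floor, equal 0.0591 to 0.236 CPM, the count of a gene scaled to a common total over all genes. Gfi1b itself had 9256 counts in the WT library of HSCs and 49910 in the KO library, and 611 and 9741 in the CD41low/CD9low pair. It was thus higher in both libraries labelled KO. These are whole-gene counts, in which the deleted exons cannot be seen, so they do not check the label. The paper itself reports the deletion in MKs and HSCs, from missing expression of the floxed exons. Of 10 HSC markers, among them Kit, Ly6a, Slamf1, Procr, Mecom and Hlf, 10 of 10 had at least 10 counts in every library. MK and platelet markers met this in 10 of 10 in both HSC libraries, so the minimum does not check the HSC label. For CD41low/CD9low over HSC in WT, 1 of 10 HSC markers was below 0.6 (Slamf1 at 0.352) and 4 were above 1.5. Of all genes tested, 16.7% and 18.6% were. Markers of other cells varied among the libraries. The summed level of 10 MK and platelet markers was 965 CPM in WT HSCs, 1531 in KO HSCs, and 292 and 300.3 in the CD41low/CD9low WT and KO libraries, where Gp6 was at 0 in both. The sum of 10 neutrophil and monocyte markers was 443, 529, 1056 and 269 CPM in the same order, with none at 0, and that of 10 erythroid markers was 128, 83.3, 176 and 52.8 CPM. Such sums can rest on few genes, and Itgb3 of the MK list went from 202 to 663 CPM in the HSC pair. For KO/WT in HSCs, 1 of 10 MK and platelet markers was below 0.6 (Tubb1 at 0.208) and 3 were above 1.5. Of 10 erythroid markers, 4 were below 0.6 and 3 above 1.5. Of all genes tested, 10.3% and 14.1% were. Lymphoid markers summed to between 48.3 and 69.9 CPM. Of these, 3 of 10 were at 0 in WT HSCs and 7 and 6 of 10 in the CD41low/CD9low pair. Stromal and endothelial markers summed to between 136 and 295 CPM, with Acta2 at 0 in every library. Col1a1, of the same list, was at 31.9 and 59.7 CPM in the HSC pair and at 0.943 and 0.366 CPM in the CD41low/CD9low pair. For CD41low/CD9low over HSC in WT, 3 of 9 tested stromal and endothelial markers were below 0.6 and 2 above 1.5. Reads outside annotated features numbered 60.1 to 105.3 per 100 gene counts, with the KO HSC library highest and the CD41low/CD9low pair lowest. The part of these differences in the AP-1 values was not tested.

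Fos (ENSMUSG00000021250, chromosome 12, 85473890 to 85477273, GRCm38) is the founding partner of Jun in AP-1. It was counted 67167 times in WT HSCs and 13042 times in KO HSCs, against 272 and 328 times in the CD41low/CD9low WT and KO libraries. As levels these are 1323, 313, 21.4 and 17.2. Both HSC libraries thus stood far above both CD41low/CD9low libraries, with the WT HSC library highest. In WT HSCs Fos ranked 28th of 38293 listed genes by count, and in KO HSCs 492nd. Its KO/WT ratio of normalized counts was 0.240 in HSCs (95% interval 0.235 to 0.244) and 0.804 in CD41low/CD9low HSCs (0.682 to 0.948). The intervals here and below are exact binomial (Clopper-Pearson) and cover counting error only, and in bulk libraries fewer cells with a transcript and less of it per cell cannot be told apart. Of the 8444 genes that reached 1000 counts in an HSC library, 11 had a lower KO/WT ratio than Fos.

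Fosb (ENSMUSG00000003545, chromosome 7, 19302696 to 19310051), the nearest relative of Fos with a full activation domain, followed the same order. It was at 622 CPM in WT HSCs, 165 CPM in KO HSCs, 42.1 CPM in WT and 34.8 CPM in KO CD41low/CD9low HSCs. The KO/WT ratio was 0.269 in HSCs (0.262 to 0.276) and 0.827 in CD41low/CD9low HSCs (0.737 to 0.929). The Fos-related antigens differed from this pattern. Fosl2 (ENSMUSG00000029135, chromosome 5, 32135801 to 32157842) lay within a narrow range, at 38.6 and 26.6 CPM in the HSC pair (WT, then KO) and at 34.1 and 34.4 CPM in the CD41low/CD9low WT and KO libraries. Here the KO HSC library was the lowest and the other libraries were close to each other, with KO/WT ratios of 0.698 in HSCs (0.648 to 0.752) and 1.01 in CD41low/CD9low HSCs (0.893 to 1.14). Fosl1 (ENSMUSG00000024912, chromosome 19, 5447547 to 5455946) was scarce everywhere, with 61 and 4 counts in the HSC pair (WT, then KO) and 10 and 14 in the CD41low/CD9low WT and KO libraries. Its ratio of 0.0809 in HSCs (0.0214 to 0.218) rests on the 4 KO counts, and its ratio of 0.933 in CD41low/CD9low HSCs had an interval from 0.386 to 2.35. An antiparallel gene, Ccdc85b, overlaps Fosl1, and whether HTSeq used the strand is not given in the sources used here.

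**Figure D1:**
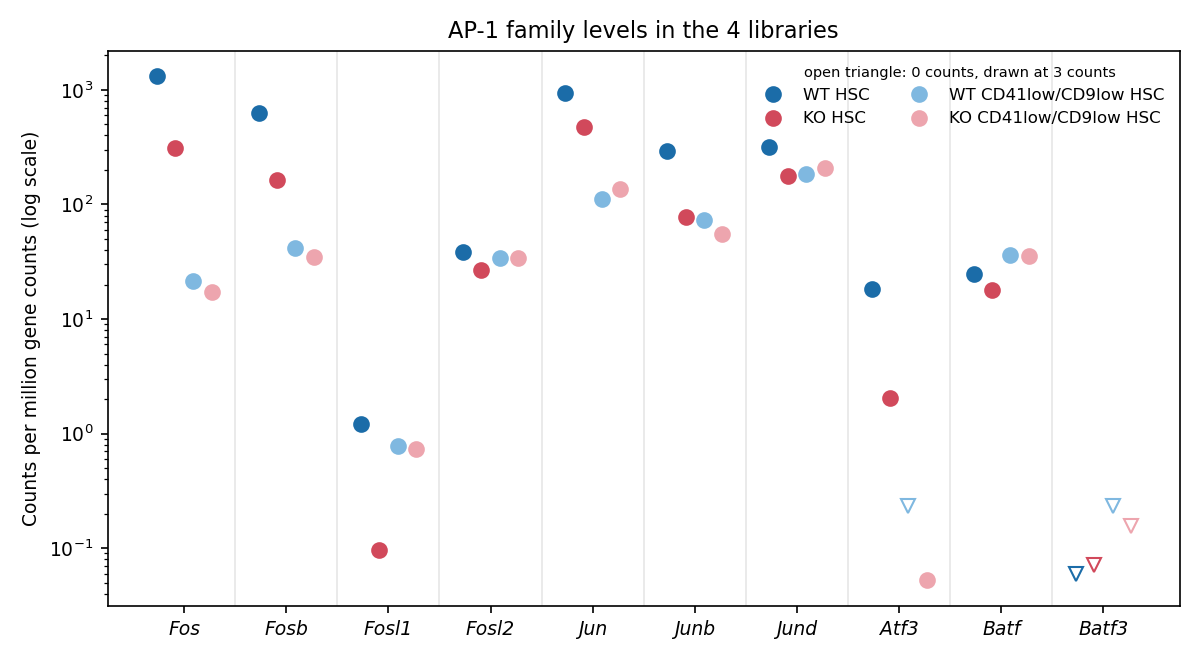
Level of each AP-1 member in the 4 libraries, as CPM on a log axis, with 1 point per library and an open triangle at the floor of 3 counts where a library had 0. Fos stood at 1323 CPM in WT HSCs and at 17.2 CPM in KO CD41low/CD9low HSCs, whereas Fosl2 and Batf stayed between 17.8 and 38.6 CPM in all 4 libraries and Batf3 had no counts.

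Jun (ENSMUSG00000052684, chromosome 4, 95049034 to 95052222), the partner shared by all Fos proteins, had 47669 counts in WT HSCs and 19924 in KO HSCs, and 1416 and 2628 in the CD41low/CD9low WT and KO libraries. As levels these are 939, 478, 111 and 137 CPM. The HSC pair was again above the CD41low/CD9low pair, but the genotypes took opposite orders in the populations. The KO/WT ratio was 0.516 in HSCs (0.507 to 0.524) and 1.24 in CD41low/CD9low HSCs (1.16 to 1.32). Junos, an antisense transcript that overlaps Jun, had 99 and 113 counts in the HSC pair, which is far below the counts of Jun.

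Junb (ENSMUSG00000052837, chromosome 8, 84974484 to 84978718), a Jun protein with weaker activation, was at 295 CPM in WT HSCs and 77.2 CPM in KO HSCs, and at 73.0 and 55.1 CPM in the CD41low/CD9low WT and KO libraries. Only the WT HSC library stood clearly apart, since the KO HSC library nearly met the WT CD41low/CD9low library. Its KO/WT ratio was 0.265 in HSCs (0.255 to 0.275) and 0.755 in CD41low/CD9low HSCs (0.690 to 0.825). Prdx2 overlaps Junb on the opposite strand and was well expressed, with 3541 to 11464 counts, and how reads in the overlap were assigned is not known here. Jund (ENSMUSG00000071076, chromosome 8, 70698949 to 70700616) was the most even of the Jun genes, at 318 CPM in WT HSCs, 178 CPM in KO HSCs, 185 CPM in WT and 210 CPM in KO CD41low/CD9low HSCs. The WT HSC library was the highest and the remaining libraries were within a narrow band. The KO/WT ratio of Jund was 0.569 in HSCs (0.553 to 0.585) and 1.13 in CD41low/CD9low HSCs (1.08 to 1.19). With a correction for exon length its ratio in HSCs was 0.640, above the cutoff of 0.6 used below.

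Atf3 (ENSMUSG00000026628, chromosome 1, 191170296 to 191218039), a stress-induced bZIP repressor that pairs with Jun proteins, had 930 counts in WT HSCs and 85 in KO HSCs, or 18.3 and 2.04 CPM. Its KO/WT ratio in HSCs was 0.113 (0.0893 to 0.141). In CD41low/CD9low HSCs it had 0 counts in the WT and 1 count in the KO library, below the floors of 0.236 and 0.157 CPM, so no ratio can be given there. Batf (ENSMUSG00000034266, chromosome 12, 85686669 to 85709087), which occupies AP-1 sites in lymphoid and myeloid cells together with Jun proteins, was the 1 detected member with higher levels in both CD41low/CD9low libraries than in both HSC libraries. Its levels were 24.8 and 17.8 CPM in the HSC pair (WT, then KO) and 36.4 and 35.5 CPM in the CD41low/CD9low WT and KO libraries. The KO/WT ratios of Batf were 0.729 (0.665 to 0.799) and 0.976 (0.866 to 1.10). Batf3 (ENSMUSG00000026630, chromosome 1, 191097847 to 191108945), known for its role in dendritic cells, had 0 counts in all 4 libraries, which allows up to 0.0591 CPM at the depth of the WT HSC library and up to 0.236 CPM in WT CD41low/CD9low HSCs.

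The KO/WT ratio of AP-1 genes in HSCs is the contrast from which the family was picked, so the following counts describe it and test nothing. Of the 10 members, 9 reached the minimum of 10 counts in an HSC library, and Fosl1 met this minimum through its WT library alone. Their ratio was below 1 in 9 of 9 and below 0.6, the lower cutoff of the study, in 7 of 9, while 10.3% of the 15910 genes tested were below 0.6. Jund at 0.569 was the nearest member under this cutoff, and Fosl2 at 0.698 the nearest above it. No member was above the upper cutoff of 1.5, where 14.1% of all genes were. The median log2 KO/WT of the 9 members was -1.90, against 0.00 for all genes tested. Low-count genes fill the tails of such ratios. Among the 8444 genes that reached 1000 counts in an HSC library, 2.03% were below 0.6, and 5 of the 7 members in that range were (Fos, Fosb, Jun, Junb and Jund). The median log2 KO/WT of these 7 was -0.95. The immediate-early members had the lowest ratios, from 0.113 for Atf3 to 0.516 for Jun, when Fosl1 with its 4 KO counts is set aside.

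**Figure D2:**
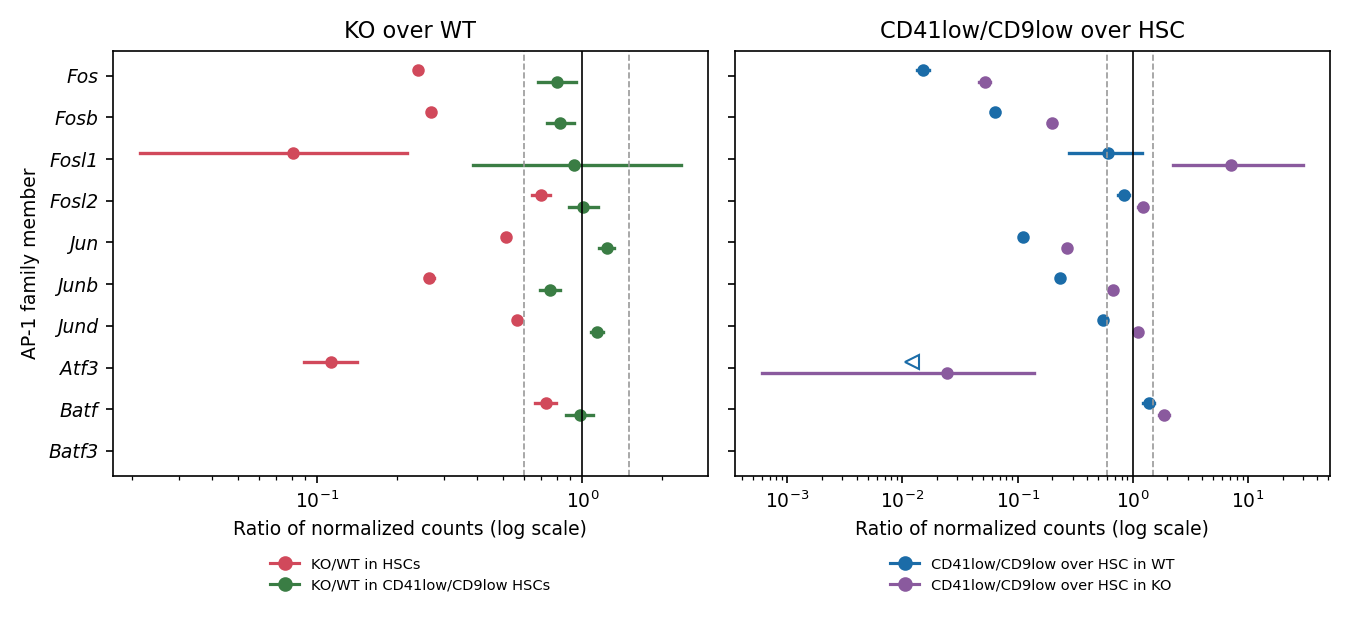
Ratios of normalized counts for each AP-1 member on log axes, KO over WT at left and CD41low/CD9low over HSC at right, with bars for the 95% counting interval, dashed lines at the cutoffs 0.6 and 1.5, and an open arrow for the upper bound of Atf3. In HSCs 7 members lie left of 0.6, and in CD41low/CD9low HSCs all 8 plotted KO/WT ratios lie between 0.755 and 1.24.

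Between the CD41low/CD9low libraries 8 members met the count minimum, Atf3 and Batf3 being too low. None of the 8 was below 0.6 or above 1.5, while 12.0% and 13.5% of the 14844 genes tested were. These shares depend on low-count genes. They were 5.83% and 8.15% of the 12042 genes that reached 50 counts. Among the 4907 genes that reached 1000 counts they were 0.285% and 2.14%, and 3 members were in that range. The ratios ran from 0.755 for Junb to 1.24 for Jun, with 5 of 8 below 1, and the median log2 KO/WT was -0.07 against 0.01 for all genes. Dividing the ratio in CD41low/CD9low HSCs by that in HSCs gave 3.35 for Fos (2.84 to 3.96), 3.08 for Fosb (2.74 to 3.47), 2.85 for Junb (2.59 to 3.14), 2.40 for Jun (2.24 to 2.57) and 1.99 for Jund (1.88 to 2.11). For Fosl2 and Batf it was 1.44 (1.25 to 1.67) and 1.34 (1.15 to 1.56), and for Fosl1 11.5 with an interval from 2.76 to 55.2 (conditional exact intervals, for counting error). The quotient was therefore above 1 for all 8 members that could be compared, and largest, leaving Fosl1 aside, for the immediate-early members. Its divisor is the HSC ratio from which the family was picked, so these quotients describe the members and test nothing. The share of all genes with a quotient above 1 was not computed. The HSC counts cover 38293 listed genes and the CD41low/CD9low counts cover 41214, so the populations were counted on different annotations, and population and counting cannot be told apart.

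**Figure D3:**
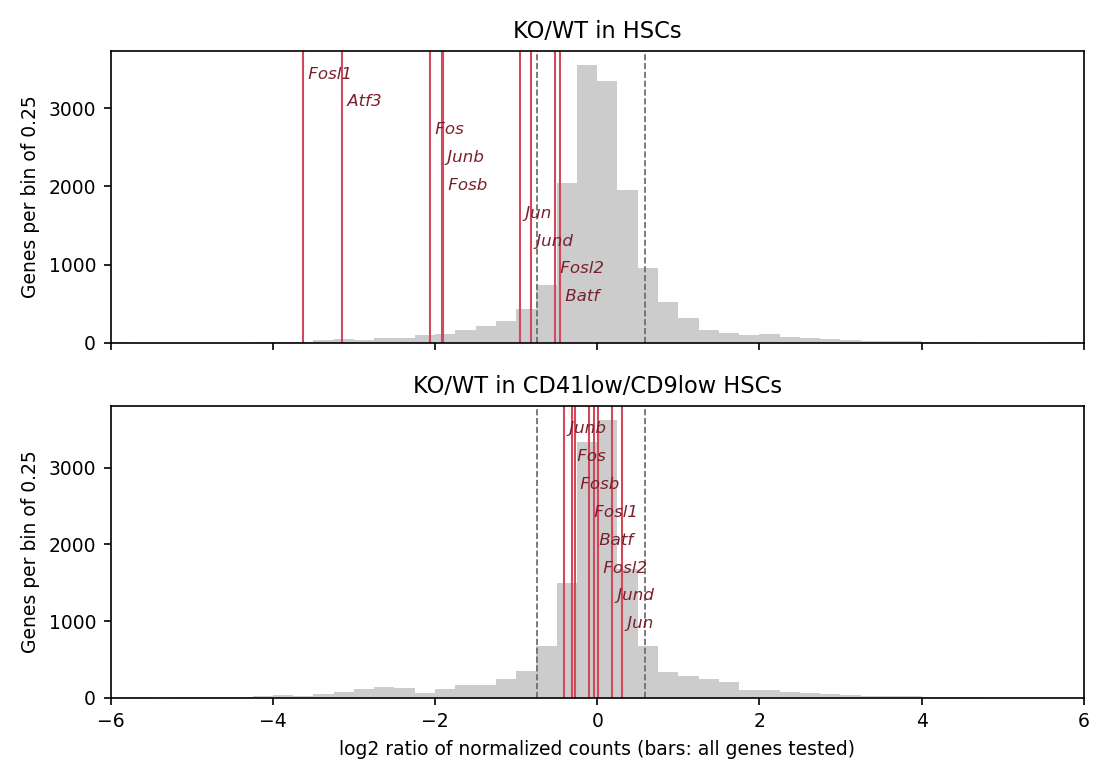
Histograms of the log2 KO/WT ratio of all genes tested (grey bars, bins of 0.25) in HSCs and in CD41low/CD9low HSCs, with red lines at the AP-1 members and dashed lines at the cutoffs 0.6 and 1.5. The members spread from -3.63 (Fosl1) to -0.46 (Batf) in HSCs and gather between -0.41 (Junb) and 0.31 (Jun) in CD41low/CD9low HSCs.

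For Fos, Fosb, Jun, Junb and Atf3, the WT libraries of the populations differed by more than the WT and KO libraries of HSCs did. For Junb the margin was narrow (0.233 against 0.265), and for Jund (0.549 against 0.569) the counting intervals overlapped. In WT, the ratio of CD41low/CD9low to HSC normalized counts was 0.0152 for Fos (0.0134 to 0.0171), 0.0637 for Fosb (0.0583 to 0.0693), 0.112 for Jun (0.106 to 0.118) and 0.233 for Junb (0.218 to 0.249). Fos was thus 65.8-fold lower and Jun 8.97-fold lower in the CD41low/CD9low library. Of the 8278 genes that reached 1000 counts in a WT library, 8 had a lower ratio than Fos. Atf3, with 0 counts in WT CD41low/CD9low HSCs, was at least 82.6-fold lower when set to 3 counts in that library. Jund had a ratio of 0.549 (0.525 to 0.573), Fosl1 of 0.615 (0.281 to 1.21), Fosl2 of 0.832 (0.748 to 0.924) and Batf of 1.38 (1.24 to 1.54). Of the 9 members past the count minimum, Atf3 through its HSC library alone, 6 were below 0.6 and 0 above 1.5, against 16.7% and 18.6% of 15636 genes. Among the 8278 genes that reached 1000 counts the shares were 10.8% and 5.90%, and 5 of the 7 members in that range were below 0.6.

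Between the KO libraries Fos, Fosb, Jun and Junb differed less. The CD41low/CD9low to HSC ratio was 0.0516 for Fos (0.0461 to 0.0576), 0.198 for Fosb (0.183 to 0.215) and 0.271 for Jun (0.260 to 0.282). It was 0.671 for Junb (0.626 to 0.720), 1.11 for Jund (1.06 to 1.15) and 1.22 for Fosl2 (1.10 to 1.34). The direction for Jund turned, to 0.959, with a correction for exon length. Of 9 members, 4 were below 0.6 (Fos, Fosb, Jun and Atf3) and 2 above 1.5 (Fosl1 and Batf), against 20.6% and 18.4% of 15419 genes. Among the 7726 genes that reached 1000 counts in a KO library the shares were 14.3% and 8.04%, and 3 of the 6 members in that range were below 0.6. Fosl1 met the count minimum through its CD41low/CD9low library alone, and its ratio of 7.18 (2.25 to 30.0) rests on 14 counts against 4. Batf had a ratio of 1.87 (1.68 to 2.08), and Atf3 of 0.0241 (0.000604 to 0.138) on its single count. The 4 ratios of a gene use the same 4 libraries, and this contrast and the preceding ones are not independent.

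Because the transcripts differ in length, levels of different members were compared as CPM per kilobase of exon. In WT HSCs Fos led at 562 CPM per kb, followed by Jun at 294, Jund at 190, Junb at 128 and Fosb at 99.7. In KO HSCs Jun led at 149.9 CPM per kb, with Fos at 133 and Jund at 106.9. In both CD41low/CD9low libraries Jund led, at 111 CPM per kb in WT and 126 in KO, followed by Jun at 34.9 and 43.1, whereas Fos was at 9.08 and 7.29. The leading transcript per kilobase thus changed from Fos in WT HSCs to Jun in KO HSCs and Jund in CD41low/CD9low HSCs. The step from Jun to Fos in KO HSCs was only 1.13. The annotation of the counts may differ from that of the exon lengths, and protein was not measured. Steps between neighbours in this order were above counting error except for that from Batf at 25.2 to Junb at 23.9 CPM per kb in KO CD41low/CD9low HSCs, a step of 1.05 (0.955 to 1.16). No spread between replicates is known for any of them.

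As shares of the summed per-length level of the 10 members, the 4 Fos genes made up 51.1% in WT HSCs, 34.8% in KO HSCs, and 8.84% and 7.14% in the CD41low/CD9low WT and KO libraries. The 3 Jun genes made up 46.9%, 62.3%, 79.6% and 82.1% in the same order. Within these groups, Fos alone held 43.1% of the total in WT HSCs and 28.5% in KO HSCs, and Jund held 49.7% and 53.6% in the CD41low/CD9low pair against 14.6% and 22.9% in the HSC pair. The per-length ratio of Fos to Jun was 1.91, 0.888, 0.260 and 0.169 across WT HSCs, KO HSCs and the CD41low/CD9low WT and KO libraries. Batf, at 1.35% and 2.72% of the total in HSCs, reached 11.6% and 10.7% in CD41low/CD9low HSCs. The summed level of the family was 3580 CPM in WT HSCs, 1258 CPM in KO HSCs, and 504 and 525 CPM in the CD41low/CD9low WT and KO libraries.

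**Figure D4:**
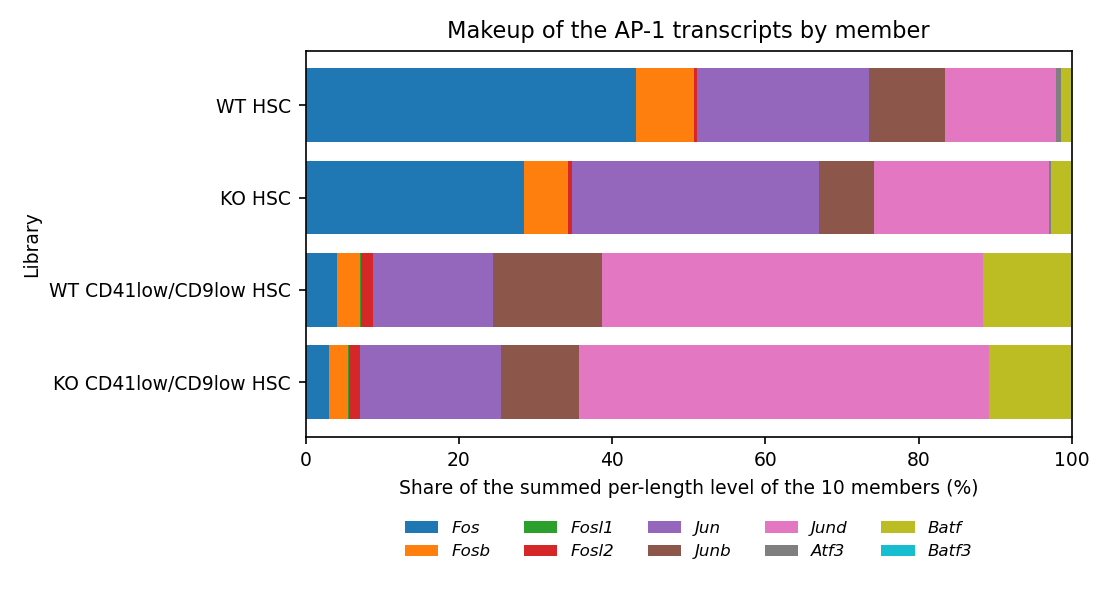
Each bar is 1 library and shows the share in percent of every AP-1 member in the summed per-length level of the 10 members. Fos takes 43.1% of the WT HSC bar and 28.5% of the KO HSC bar, and Jund takes 49.7% and 53.6% of the CD41low/CD9low bars.

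Genes that act with or upstream of AP-1 were read from lists chosen by function. Of all genes tested, 10.3% were below 0.6 and 14.1% above 1.5 in HSCs, and 12.0% and 13.5% in CD41low/CD9low HSCs. Among 35 further bZIP factors, 33 met the count minimum in HSCs, with 6 below 0.6, 3 above 1.5 and a median log2 KO/WT of -0.06. The lowest were Maff, a small Maf protein, with a ratio of 0.223 (0.191 to 0.258), Creb5 with 0.282 (0.179 to 0.432) and Cebpb, a factor of myeloid and inflammatory genes, with 0.327 (0.269 to 0.396). Of the 33 tested in CD41low/CD9low HSCs, 8 were below 0.6 and 0 above 1.5, among them Cebpd at 0.356 (0.236 to 0.529), Nfil3 at 0.424 (0.281 to 0.634) and Cebpe, a granulocyte factor, at 0.433 (0.310 to 0.6007). In that pair the neutrophil and monocyte markers were lower in KO as well, 9 of 9 tested being below 0.6, and their part in these ratios was not tested.

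The MAP kinase cascade, which carries the signals that switch on Fos and Jun, had 1 of 30 tested genes below 0.6 and 4 above 1.5 in KO HSCs. The median log2 ratio was 0.11. Of all genes tested, 10.3% and 14.1% passed these cutoffs in HSCs, and 12.0% and 13.5% in CD41low/CD9low HSCs. The count above 1.5 in HSCs was thus near the share of all genes, for this list and for the Fos activators below. The lowest was Mapk13, with 10 counts in KO and 59 in WT and a ratio of 0.209 (0.0954 to 0.412), and the highest were Mapk12 at 1.66 (1.32 to 2.10) and Braf, a kinase upstream of Erk, at 1.65 (1.59 to 1.72). For CD41low/CD9low HSCs 2 of 30 were below 0.6, among them Mapk13 at 0.0290 (0.00583 to 0.0883), and Mapk7, the Erk5 kinase, was the 1 above 1.5 at 2.72 (2.20 to 3.38). Of 13 activators of Fos transcription, such as Srf, its Elk partners and Creb1, 0 were below 0.6 and 2 above 1.5 in HSCs. These were the acetyltransferase genes Ep300 at 1.58 (1.53 to 1.63) and Crebbp at 1.54 (1.501 to 1.59), and none of the 13 passed either cutoff in CD41low/CD9low HSCs.

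Of 14 genes that control the turnover of AP-1 mRNA or protein, 1 was below 0.6 in HSCs, namely Zfp36, which destabilizes AU-rich mRNAs and is itself an immediate-early gene, at 0.302 (0.290 to 0.314). In CD41low/CD9low HSCs 0 of 14 were below 0.6, and Det1, part of a ubiquitin ligase that targets Jun, was above 1.5 at 1.503 (1.27 to 1.78). Of 29 genes described as AP-1 targets, 23 met the count minimum in HSCs, with 6 below 0.6, 6 above 1.5 and a median log2 KO/WT of -0.42, where 10.3% and 14.1% of all genes tested passed these cutoffs. Spp1 at 0.0968 (0.0489 to 0.174) and Il1b at 0.288 (0.184 to 0.437) were low, and Il6 was high at 5.08 (3.28 to 8.13). Of 19 tested in CD41low/CD9low HSCs, 9 were below 0.6 and 4 above 1.5, against 12.0% and 13.5% of all genes, with a median of -0.42. Of the 4 above 1.5, 3 had 0 WT counts and met the count minimum through the KO library alone, and the other was Vim, an intermediate filament gene named after its values were seen, at 1.84. A count of 0 also underlay 1 of the 9 below 0.6 there and 1 of the 6 above 1.5 in HSCs. Mmp9 at 0.210 (0.163 to 0.268), Fn1 at 0.439 (0.323 to 0.592) and Hmox1 at 0.466 (0.327 to 0.659) had the lowest ratios among those with at least 50 counts. The cyclin gene Ccnd1 went from 82.3 to 50.8 CPM in HSCs and from 93.5 to 53.4 CPM in CD41low/CD9low HSCs, so that, unlike Fos, it stood at like levels in the populations.

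**Figure D5:**
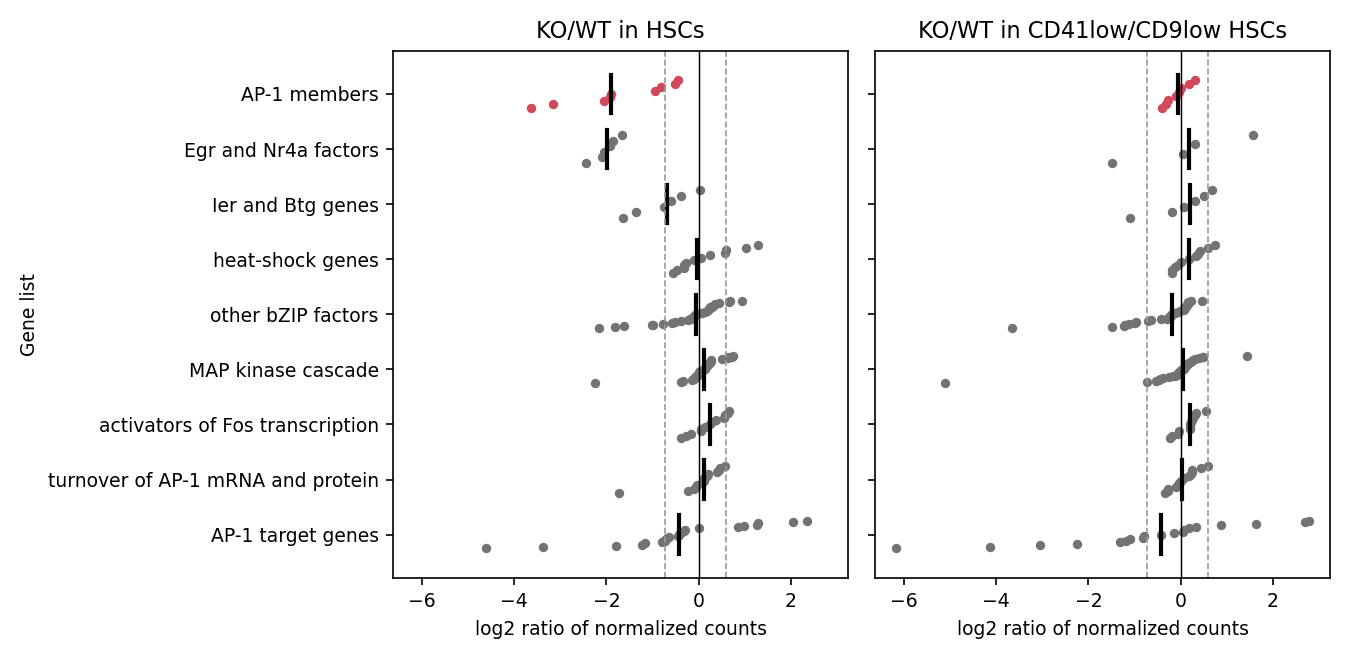
log2 KO/WT of each tested gene in HSCs (left) and CD41low/CD9low HSCs (right), by gene list, with 1 point per gene, a black bar at the median of the list and dashed lines at the cutoffs. In HSCs the medians of the AP-1 members (-1.90) and of the Egr and Nr4a factors (-1.99) lie left of the lower cutoff, and in CD41low/CD9low HSCs every median lies between -0.42 and 0.21.

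Among other immediate-early genes, 6 of 6 tested Egr and Nr4a factors were below 0.6 in KO HSCs with a median log2 ratio of -1.99, close to that of the AP-1 members. The shares of all genes tested were 10.3% below 0.6 and 14.1% above 1.5 in HSCs, and 12.0% and 13.5% in CD41low/CD9low HSCs. Nr4a1, an orphan nuclear receptor, had a ratio of 0.184 (0.174 to 0.195), Nr4a2 of 0.232 (0.215 to 0.251) and Egr2 of 0.240 (0.145 to 0.382). In CD41low/CD9low HSCs Nr4a1 was at 0.355 (0.253 to 0.494) on 107 WT and 57 KO counts, while Nr4a2 was at 2.96 (1.70 to 5.45) on 16 and 71. Of 6 Ier and Btg genes 3 were below 0.6 in HSCs, with a median of -0.68, including Ier5l at 0.321 (0.160 to 0.5996), Ier2 at 0.389 (0.374 to 0.404) and the antiproliferative gene Btg2 at 0.589 (0.569 to 0.611). Between the CD41low/CD9low libraries Btg2 was at 0.466 (0.374 to 0.578) and Ier3 at 1.6 (1.36 to 1.88), the 2 of 6 past a cutoff. Of 12 heat-shock genes 0 were below 0.6 in HSCs, where Hspa1a and Hspa1b were above 1.5, and 0 of 11 were below it in CD41low/CD9low HSCs, where Bag3 at 1.69 (1.34 to 2.14) and Hspe1 at 1.5005 (1.37 to 1.64) were above 1.5.

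By the pattern of log2 levels over the 4 libraries, centred per gene, the 5 genes nearest to Fos among 13305 that reached 50 counts in a library were Cd226, Egr3, Slc6a4, Cxcl9 and Gm22767, at Euclidean distances of 0.288 to 0.551. They had 89 to 160 counts in WT HSCs, 19 to 35 in KO HSCs and 0 in both CD41low/CD9low libraries. Levels entered as log2 of the normalized count plus 1, so their fall to the CD41low/CD9low libraries is set by that added 1 and their HSC counts. Levels under the floors of the CD41low/CD9low libraries cannot be ordered, so the likeness of these genes to Fos there is not shown. The same limit applies to Atf3, with 0 and 1 counts in that pair. Among the members, Fosb at a distance of 2.01 and Atf3 at 2.11 were nearest to Fos, Jun at 2.78 and Junb at 3.82 came next, and Jund at 4.89, Fosl2 at 5.28, Batf at 5.95 and Fosl1 at 6.10 were farthest.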

How the data were processed

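RNA of the 4 sorted samples was sequenced with the TruSeq Stranded mRNA kit. The authors aligned the reads to mm10 with TopHat2 2.0.10, processed them with SAMtools and counted them on Ensembl genes with HTSeq, whose version, settings and annotation release are not given in the sources used here. The deposited values are raw read counts per gene, and the closing lines that name no gene (157 to 227 per 100 counts on genes, mostly reads on no feature or with several alignments) were left out. For each pair of libraries, size factors (median of ratios, as DESeq computes them) scaled the counts before ratios were taken. A gene entered a comparison when either library held at least 10 counts, and a count of 0 was set to 3 in a ratio. With 1 library per group no test was made. The members and gene lists were chosen with earlier results of these data known. Named genes were the members, up to 3 genes per list and population past a cutoff with at least 50 counts and the largest ratios in either direction, Ccnd1 and the 5 genes nearest to Fos. Some genes that this rule names are not reported here. Exon lengths and coordinates came from GENCODE M21 (GRCm38). Alternatives used TMM (edgeR 4.0.16), library totals, size factors over 4 libraries, a pseudocount of 1, other minimums and cutoffs, and an exon length correction (subtracting a running median, window of 501 genes). The ratio and interval code was tested on simulated data. Software was Python 3.11.15, scipy 1.17.1 and R 4.3.3.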

Additional observations from a re-analysis of the deposited data

Results flagged for a closer look

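Jun and Jund had KO/WT ratios whose counting intervals lay on opposite sides of 1 in the populations, and no other member did. Genes outside the family showed this as well. Srf and Dnajb1 had the same order as Jun, and Atf6 and Vwf the reverse order. These intervals cover counting error only and are narrow at high counts. The share of all genes with such intervals was not computed, so the pattern is not shown to be special to these members. The ratio of Jun, 0.516 among HSCs, stood at 1.24 in the CD41low/CD9low pair, a quotient of 2.40. That of Jund was 0.569 and 1.13, a quotient of 1.99. With 1 library per genotype and population, this difference between the populations was not tested.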

How the results depend on the processing

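Pairing of libraries by replicate was not possible because each genotype and population has 1 library, and no replicate could be left out. A fit of genotype with population as a block would leave 1 residual degree of freedom and was not run. The number of members below 0.6 in KO HSCs was 7 under TMM, library totals, size factors over 4 libraries and a pseudocount of 1, 6 after the exon length correction, in which Jund moved to 0.640, and 5 with cutoffs of 1/2 and 2. In CD41low/CD9low HSCs it was 0 under every alternative. The median log2 KO/WT of the members in HSCs was -1.82 after the exon length correction. With a minimum of 1000 counts, chosen after seeing the data, the medians rest on fewer members and were -0.95 in HSCs and 0.18 in CD41low/CD9low HSCs, where the sign turned. Of 35 ratios of single members, 32 kept their side of the cutoffs under 5 alternatives each. Besides Jund, the exceptions were Fosl1 in WT (0.583) and Fosl2 in KO (1.52), CD41low/CD9low over HSC, both after the exon length correction. That correction also turned 3 ratios near 1 to its other side, Jund in KO, CD41low/CD9low over HSC (0.959), and, for KO/WT in CD41low/CD9low HSCs, Fosl2 (0.993) and Batf (1.01). The depth limits Fosl1, Atf3 and Batf3, with at most 14 counts each in the CD41low/CD9low libraries.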
